A study of Mus musculus with 12 samples.

Results

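The transcripts examined here come from 10 genes by which the small intestine absorbs dietary fat and exports it in chylomicrons. They were taken by gene name from a table of 15855 genes, in which all 10 had a row. RNA was sequenced from EpCAM+ epithelial cells, which were sorted from the whole small intestine of C57BL6/J mice 24 h after surgery. EpCAM, an adhesion molecule, marks the surface of epithelial cells, and the sort kept live cells without splitting them by cell type or by gut segment. The pMCAO group held 5 samples from mice whose middle cerebral artery had been blocked permanently, and the Sham group held 7 samples from mice that had the same anaesthesia and neck surgery without the occlusion. The mice were wild-type males aged 8 to 12 weeks, and both groups were given mash and water freely after surgery. The comparison asked which genes of the gut epithelium differ after experimental stroke.

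Fatty acids and monoacylglycerol enter the enterocyte from the gut lumen, are carried in the cytosol by the fatty acid binding proteins FABP1 and FABP2, and are joined again to triglyceride at the endoplasmic reticulum by MOGAT2 and then by DGAT1 or DGAT2. The microsomal triglyceride transfer protein MTTP loads this triglyceride onto apolipoprotein B, the structural protein of the chylomicron. Apolipoproteins A-I, A-IV and C-III join the particle on its way to the lymph. The enterocytes of the upper small intestine are the main site of this work after a meal.

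The total count per sample ranged from 7418730 to 31925579, and the 10 genes took between 2.31% and 5.85% of it. The mitochondrial ribosomal RNAs took between 14.6% and 54.5%. The sample titles number the libraries, and libraries 58 to 61, with 3 Sham samples and pMCAO replicate 1, stood apart from the other 8 on the first principal component, which held 40.5% of the variance. These early libraries differed from the later ones in markers of other epithelial cells. The summed level of 6 goblet cell markers was 3217 to 5781 CPM (counts scaled to the library size) in the early libraries and 15884 to 39666 CPM in the later ones, and that of 6 enteroendocrine markers was 180 to 368 CPM and 1538 to 3229 CPM. The summed level of 5 tuft cell markers was 16.2 to 43.4 CPM in the early libraries and 149 to 698 CPM in the later ones. The 8 enterocyte markers summed to 13272 to 18314 CPM in the early libraries and to 7744 to 16475 CPM in the later ones, so the cells carried the transcripts of absorptive enterocytes in every library. The 7 leukocyte markers summed to at most 227 CPM, and of 7 stromal and endothelial markers 2 had a row in the table, with a sum of at most 13.7 CPM. Group differences are therefore also given without the early libraries and with the library runs in the fit.

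The members lie on chromosomes 3, 6, 7, 9, 12 and 15 of the mouse genome (GRCm38, GENCODE M21), and some of them are neighbours. Apoa1 (chr9:46228580-46230466, plus strand), Apoc3 (chr9:46232933-46235636, minus strand) and Apoa4 (chr9:46240696-46243459, plus strand) form a cluster, and Dgat2 (chr7:99153658-99182719) lies beside Mogat2 (chr7:99219084-99238619), both on the minus strand. Fabp2 (chr3:122895072-122899506, plus strand) and Mttp (chr3:138089854-138144968, minus strand) share a chromosome. Fabp1 (chr6:71199827-71205023, plus strand), Apob (chr12:7977648-8016835, plus strand) and Dgat1 (chr15:76502015-76511953, minus strand) stand alone. Exons of Mogat2, Mttp and Apoa4 overlap exons of other genes on the opposite strand. Whether the counting used strand was not given in the sources used here, so reads of these partners cannot be told apart.

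The 250 bases upstream of the start site were at hand for 6 of the 10 members in the RefSeq table of GRCm38.p6, and 4 are shown, those of the fatty acid binding genes, whose estimates on the group alone were the largest, and those of Apoa4 and Apob as chylomicron genes. Capitals mark the letters TATAAA, the core of a TATA box, and CAAAGNNCA, a core of sites bound by the nuclear receptor HNF4, on either strand; the 2 motifs did not overlap. TATAAA occurred in 12.4% of all 32851 such windows and CAAAGNNCA in 5.49%.
Fabp1, chr6:71199629-71199878, plus strand: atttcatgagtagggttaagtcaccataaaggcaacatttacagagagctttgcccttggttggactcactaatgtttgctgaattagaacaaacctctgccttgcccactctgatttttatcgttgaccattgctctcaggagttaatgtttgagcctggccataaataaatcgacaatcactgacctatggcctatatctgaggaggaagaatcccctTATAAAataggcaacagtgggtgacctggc
Fabp2, chr3:122894822-122895071, plus strand: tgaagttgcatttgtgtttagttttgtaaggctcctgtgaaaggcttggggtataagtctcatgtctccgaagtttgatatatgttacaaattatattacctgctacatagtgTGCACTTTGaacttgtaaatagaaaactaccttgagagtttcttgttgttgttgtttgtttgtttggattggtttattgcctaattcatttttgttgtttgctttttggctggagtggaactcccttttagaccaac
Apoa4, chr9:46240594-46240843, plus strand: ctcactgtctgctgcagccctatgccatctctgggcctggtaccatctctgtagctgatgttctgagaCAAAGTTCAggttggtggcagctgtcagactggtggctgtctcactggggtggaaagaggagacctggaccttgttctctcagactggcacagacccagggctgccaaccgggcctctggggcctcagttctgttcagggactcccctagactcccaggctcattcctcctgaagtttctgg
Apob, chr12:7977427-7977676, plus strand: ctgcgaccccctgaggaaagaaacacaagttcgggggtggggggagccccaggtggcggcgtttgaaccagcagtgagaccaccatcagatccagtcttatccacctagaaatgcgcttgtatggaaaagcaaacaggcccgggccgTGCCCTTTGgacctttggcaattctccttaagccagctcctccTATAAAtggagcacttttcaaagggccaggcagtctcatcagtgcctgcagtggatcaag
Counted back from the base before the RefSeq start, TATAAA began at position -30 in Fabp1 and at -60 in Apob. CAAAGNNCA began at -182 in Apoa4, and on the reverse strand at -137 in Fabp2 and at -103 in Apob. Neither motif was found in the windows of Apoa1 and Mttp. The RefSeq start of Fabp2 is also its GENCODE start, whereas those of Fabp1, Apoa4, Apob, Apoa1 and Mttp lie inside the GENCODE gene, so these windows depend on the annotation.

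Per kilobase of exon, the members spanned a wide range of levels, and all 10 passed the filter on low counts. Over the 12 libraries, Apoa1 had a mean of 4934 CPM per kilobase, Fabp2 4585 and Apoa4 3757. This placed them at ranks 11, 13 and 15 among the genes that passed the filter and had a length. Fabp1 followed with 1411 CPM per kilobase, Apob with 1043 and Apoc3 with 572. The enzymes and the transfer protein were lower, with 143 CPM per kilobase for both Mttp and Dgat1, 46.3 for Dgat2 and 36.9 for Mogat2. Within the Sham group, the spreads between libraries overlapped among Apoa1 (4677 ± 1670, SD, n = 7), Apoa4 (3716 ± 1360) and Fabp2 (3386 ± 1768). Such a spread does not compare 2 genes within the same library. Apoa1 was above Apoa4 in every Sham library but replicate 4. The levels were 2749 and 3065 there and, for example, 5190 and 3732 in Sham replicate 1. Spreads also overlapped for Fabp1 (1158 ± 937) beside Apob (1058 ± 399), for Dgat1 (152 ± 44.7) beside Mttp (127 ± 34.6), and for Dgat2 (42.7 ± 15.4) beside Mogat2 (35.2 ± 10.3). Dgat2 and Mogat2 were thus the least abundant members.

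**Figure D1:**
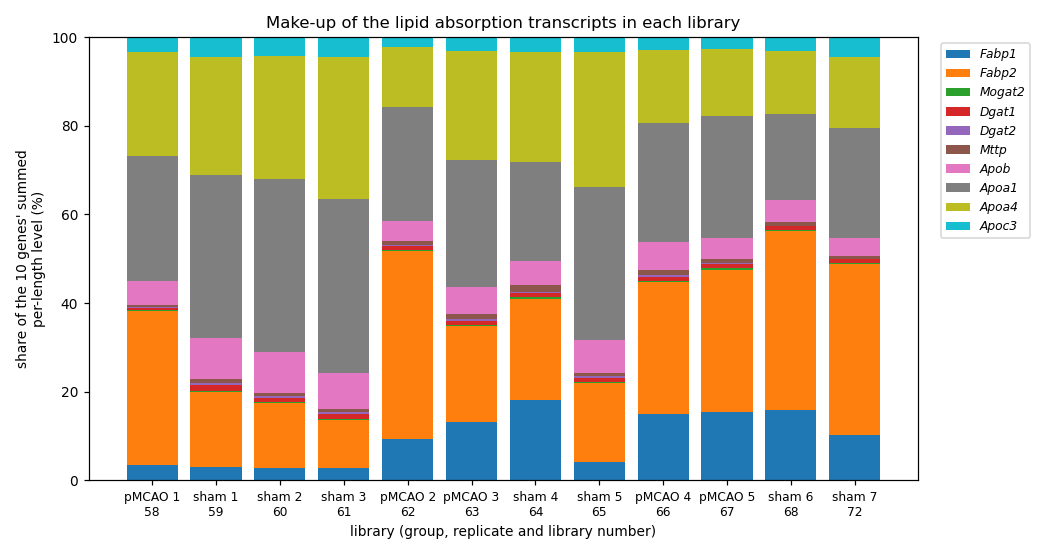
Share of the 10 genes' summed level per kilobase of exon in each library, in percent (y axis), with the libraries in the order of their numbers (x axis). Fabp1 and Fabp2 together fill the lower part of each bar, and Fabp1 takes 2.73% to 3.38% in libraries 58 to 61 and 4.08% to 18.0% in the later ones.

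The make-up of this pool differed between the early and the later libraries. Fabp1 took 2.73% to 3.38% of the members' summed per-kilobase level in the early libraries and 4.08% to 18.0% in the later ones. Apoa1 took 36.8% to 39.2% in the early Sham libraries and 19.4% to 34.7% in the later Sham libraries, whereas pMCAO replicate 1, an early library, had 28.3%. Fabp2 took 10.8% to 16.9% in the early Sham libraries and 34.9% in pMCAO replicate 1.

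No member was called different between pMCAO and Sham. A call needed an adjusted p (Benjamini-Hochberg) no higher than 0.05 together with a log2 fold change of 1 or more in either direction. On the group alone, limma-voom called 0 of 14462 genes, or 0.0%. The same fit with the library runs as a covariate, the runs being libraries 58 to 61, 62 to 65, 66 to 68 and 72, called 47 genes, or 0.325%, and 0 of the 10 members. At an unadjusted p under 0.05, limma-voom on the group alone passed 2 of 10 members, beside 8.43% of all genes, and with the runs 1 of 10, beside 12.7%. The estimate lay above 0 for 6 of 10 members on the group alone, beside 55.2% of all genes, and for 8 of 10 with the runs, beside 51.3%. The median log2 fold change of the members was 0.15 on the group alone, beside 0.06 over all genes, and 0.09 with the runs, beside 0.01. Without the early libraries, the 10 estimates ran from -0.39 for Apoc3 to 0.32 for Fabp1, and 0 members had an unadjusted p under 0.05, beside 7.58% of all genes. The 2 groups overlapped in all 10 members, whereas 0.505% of all genes did not overlap. Among the later libraries alone, again all 10 members overlapped, while 3.51% of all genes did not. In sorted bulk cells, fewer cells of a type and less RNA per cell cannot be told apart.

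**Figure D2:**
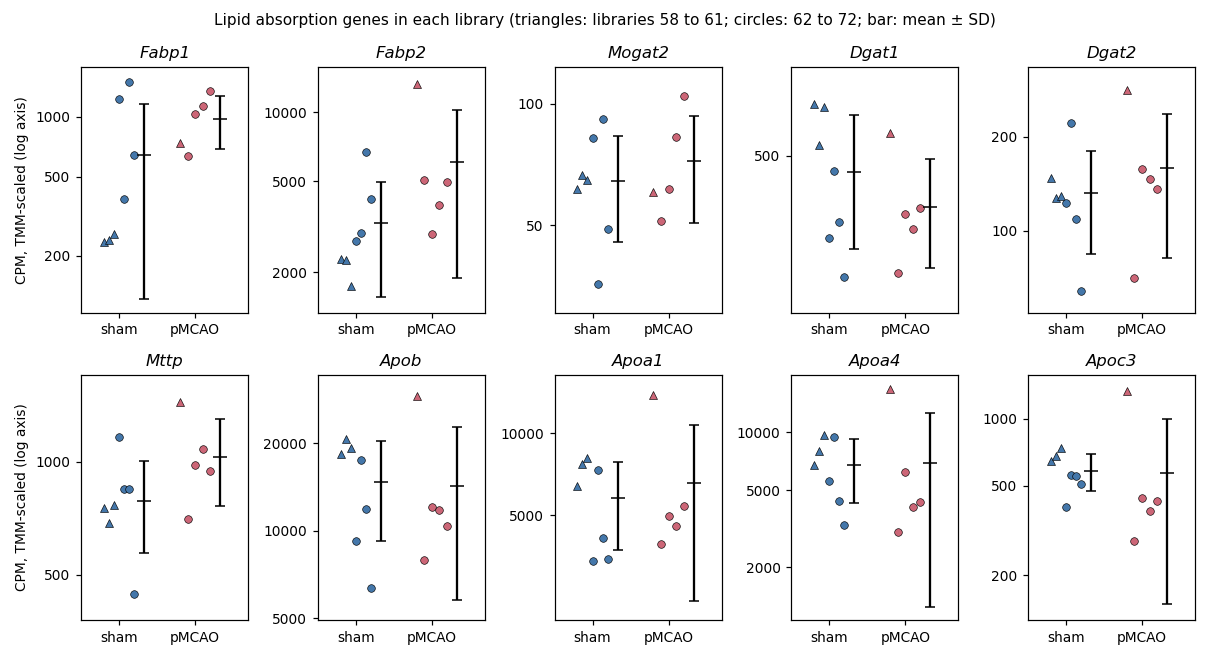
CPM scaled by trimmed mean of M values (TMM) of each gene on a log axis, by group (x axis), with 1 point per library. Triangles are libraries 58 to 61, circles are the later ones, and the bar gives the mean ± SD of the 7 Sham or 5 pMCAO samples; pMCAO replicate 1, the only pMCAO triangle, is the highest of its group for Fabp2, Dgat1, Dgat2, Mttp and the 4 apolipoproteins.

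The fatty acid binding genes had the largest estimated differences on the group alone and with the runs; without the early libraries Apoc3, at -0.39, had the largest and Fabp2 was below Mttp and Mogat2. Fabp1, which encodes the liver-type fatty acid binding protein, lay between 236 and 1497 CPM in the Sham group, with a median of 385 CPM. In the pMCAO replicates 1 to 5 it was 739, 633, 1026, 1129 and 1351 CPM. All 5 pMCAO samples lay above the Sham median and inside the Sham range, and the lowest 3 Sham samples were the early ones, with 236 to 258 CPM. The log2 fold change of Fabp1 was 1.00 ± 0.47 (SE) on the group alone (limma-voom, adjusted p = 0.589), with a 95% interval of the ratio from 1.01 to 3.98. With the runs it was 0.48 ± 0.30 (limma-voom, adjusted p = 0.534), and without the early libraries 0.32.

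Fabp2, which encodes the intestinal fatty acid binding protein, lay between 1742 and 6722 CPM in the Sham group, with a median of 2725 CPM. In the pMCAO replicates 1 to 5 it was 13339.5, 5075, 2927, 3937 and 4940.1 CPM. The first of these was the highest value of all 12 libraries, and the other 4 lay among the Sham samples. The log2 fold change of Fabp2 was 0.92 ± 0.38 (SE) on the group alone (limma-voom, adjusted p = 0.532), and 0.86 ± 0.36 with the runs (limma-voom, adjusted p = 0.326). Without pMCAO replicate 1 the estimate was 0.54, and without the early libraries it was 0.14. The mean Fabp2 level of the later libraries was 4219.7 CPM in pMCAO and 4147 CPM in Sham, with SDs of 1000.5 and 1832 CPM (n = 4 each).

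Of 8 enterocyte markers, 5 had an estimate above 0 and 2 an unadjusted p under 0.05 by limma-voom on the group alone, beside 55.2% and 8.43% of all genes, the smallest adjusted p being 0.322. With the runs the counts were again 5 and 2, beside 51.3% and 12.7%. Sis, which encodes sucrase-isomaltase, then had a log2 fold change of 0.74 ± 0.14 (SE; limma-voom, adjusted p = 0.0337). It was not called, as this was under the threshold on the fold change. Epcam, Krt20 and Cdhr5 had estimates below 0 in that fit, at -0.25, -0.04 and -0.07. The sum of the enterocyte list was 7744 to 14360 CPM in Sham and 9943 to 18314 CPM in pMCAO, with the highest value in pMCAO replicate 1. That rank depends on the scaling, as the TMM factor was 0.756 in this library. It was 1.09 in pMCAO replicate 5, the next highest at 16475 CPM. Of 4 markers of the proximal small intestine, 1 had an unadjusted p under 0.05 on the group alone, beside 8.43% of all genes. This was Cybrd1, which was near the floor, with means of 1.33 CPM in Sham and 0.193 CPM in pMCAO. The proximal list summed to 283 to 851 CPM in Sham and 417 to 620 CPM in pMCAO. Most of this was Onecut2, with means of 387 and 393 CPM. Of 6 markers of the distal small intestine, 5 were tested, and 3 had an unadjusted p under 0.05 on the group alone, beside 8.43% of all genes. These 3 went both ways, with log2 fold changes of -0.98 for Osr2, 0.50 for Slc51a and 0.68 for Slc51b. The smallest adjusted p was 0.306 by limma-voom. All 6 markers together summed to 111 to 297 CPM in Sham and 146 to 289 CPM in pMCAO. Of 6 goblet cell markers, 0 had an unadjusted p under 0.05 on the group alone, beside 8.43% of all genes, and 4 with the runs, beside 12.7%. All 4 were higher in pMCAO with the runs, at 0.66 for Tff3, 0.49 for Fcgbp, 0.52 for Clca1 and 0.61 for Spdef. Of the rest, Muc2 was at 0.22 and Agr2 at -0.09. The smallest adjusted p with the runs was 0.211 by limma-voom. The part of these cell and segment markers in the levels of Fabp1 and Fabp2 was not tested.

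**Figure D3:**
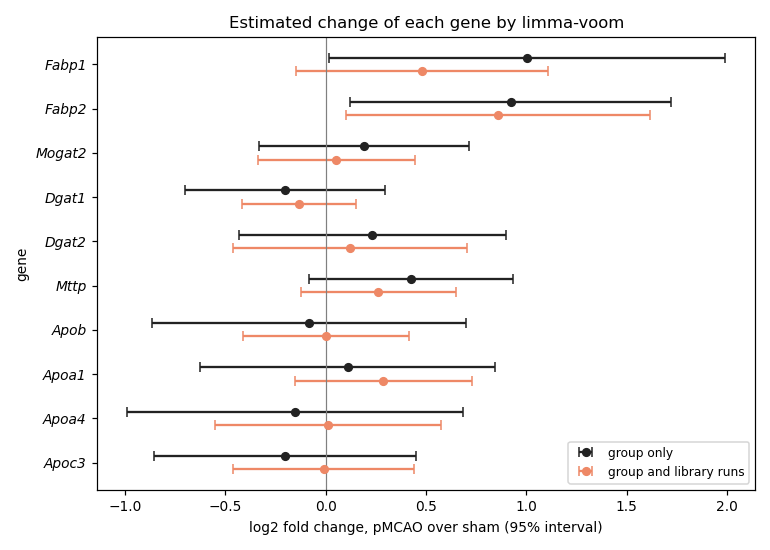
Log2 fold change of pMCAO over Sham for each gene (x axis) with its 95% interval from limma-voom, on the group alone (black) and with the library runs as a covariate (orange). The interval of Fabp2 lies above 0 in both fits and that of Fabp1 on the group alone, both before adjustment over 14462 genes, and the intervals of the other 8 genes include 0.

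The genes of triglyceride resynthesis differed by less than the spread between replicates. Mogat2, the monoacylglycerol acyltransferase, lay between 35.7 and 92.0 CPM in Sham, with a median of 64.7 CPM, and was 60.6, 51.4, 61.6, 83.0 and 104 CPM in the pMCAO replicates. Its 2 groups overlapped in nearly their whole range, and its log2 fold change was 0.19 ± 0.25 (SE), with a 95% interval of the ratio from 0.80 to 1.64. With the runs it was 0.05 ± 0.19, and without the early libraries 0.27.

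Dgat1, a diacylglycerol acyltransferase of the endoplasmic reticulum, lay between 288 and 632 CPM in Sham, with a median of 467 CPM, and was 553, 293, 383, 358 and 394 CPM in the pMCAO replicates. The highest value of each group came from the early libraries. Its log2 fold change was -0.20 ± 0.23 (SE), with a 95% interval of the ratio from 0.62 to 1.23, and with counts scaled to library totals alone it turned to 0.10, below the median of all genes of 0.35 in that fit. With the runs it was -0.13 ± 0.13, and without the early libraries -0.014.

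Dgat2, the second enzyme of this step and a protein of another family, lay between 64.2 and 222 CPM in Sham, with a median of 128 CPM, and was 282, 70.5, 157, 147 and 136 CPM in the pMCAO replicates. The pMCAO samples thus held both the highest value and, after 1 Sham sample, the lowest. Its log2 fold change was 0.23 ± 0.31 (SE), with a 95% interval of the ratio from 0.74 to 1.86, and it was -0.02 without pMCAO replicate 1. With the runs it was 0.12 ± 0.27, and without the early libraries 0.06.

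Mttp, which hands triglyceride to the growing particle, lay between 446 and 1165 CPM in Sham, with a median of 769 CPM, and was 1444, 703, 984, 1079.5 and 947 CPM in the pMCAO replicates. Of the 5 pMCAO samples, 4 lay above the Sham median and 1 above the Sham range. The log2 fold change of Mttp was 0.43 ± 0.24 (SE; limma-voom, adjusted p = 0.639), with a 95% interval of the ratio from 0.94 to 1.91. It was 0.26 ± 0.18 with the runs and 0.25 without the early libraries.

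The 4 apolipoprotein genes had estimates between -0.20 and 0.11 on the group alone, and pMCAO replicate 1 stood above the other pMCAO samples in each of them. Without that library all 4 estimates were below 0, at -0.40 for Apob, -0.23 for Apoa1, -0.58 for Apoa4 and -0.59 for Apoc3, and none passed the adjusted threshold. Apob, which encodes the structural protein of the particle, lay between 6352 and 20673 CPM in Sham, with a median of 17419 CPM. It was 29032, 7925, 12020.0, 11768.5 and 10416 CPM in the pMCAO replicates. Replicate 1 was above every Sham sample and the other 4 lay below the Sham median. Its log2 fold change was -0.08 ± 0.37 (SE), with a 95% interval of the ratio from 0.55 to 1.63. The spread of the estimate was narrower with the runs, at 0.003 ± 0.20, with an interval of the ratio from 0.75 to 1.33, and without the early libraries it was 0.03.

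Apoa1, the main protein of high-density lipoprotein and a surface protein of chylomicrons, lay between 3398 and 8073 CPM in Sham, with a median of 6415 CPM, and was 13842, 3923, 4980.2, 4558 and 5413 CPM in the pMCAO replicates. The last 4 samples lay within the Sham range. The log2 fold change of Apoa1 was 0.11 ± 0.35 (SE), with a 95% interval of the ratio from 0.65 to 1.79. It was 0.29 ± 0.21 with the runs and 0.14 without the early libraries.

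Apoa4, an apolipoprotein made mainly by enterocytes during fat absorption, lay between 3288 and 9731 CPM in Sham, with a median of 6773 CPM, and was 16857, 3024, 6243, 4120.1 and 4359 CPM in the pMCAO replicates. Replicate 2 was below every Sham sample and replicate 1 above every one. For Apoa4 the log2 fold change was -0.15 ± 0.39 (SE), with a 95% interval of the ratio from 0.50 to 1.61, and 0.01 ± 0.27 with the runs. Without the early libraries it was -0.29.

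Apoc3, an inhibitor of lipoprotein lipase, lay between 405 and 739 CPM in Sham, with a median of 558 CPM, and was 1326, 284, 441, 385 and 430.2 CPM in the pMCAO replicates. The Sham samples were the tighter group, with a mean of 585 CPM and an SD of 112 CPM (n = 7) against 574 and 425 CPM for pMCAO (n = 5). The estimated log2 fold change was -0.20 ± 0.31 (SE), with a 95% interval of the ratio from 0.55 to 1.37, and -0.01 ± 0.21 with the runs. Without pMCAO replicate 1 it was -0.59 (limma-voom, adjusted p = 0.238), and without the early libraries -0.39. Leaving out that library passed 2 of 10 members at an unadjusted p under 0.05, Fabp1 and Apoc3, beside 14.1% of all genes. Among the later libraries its mean was 508 CPM in Sham and 385 CPM in pMCAO, with SDs of 71.8 and 71.5 CPM (n = 4 each). With counts scaled to library totals alone, which moved the median of all genes from 0.06 to 0.35, the estimates of Apob, Apoa4 and Apoc3 turned to 0.21, 0.15 and 0.05, all below that median.

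**Figure D4:**
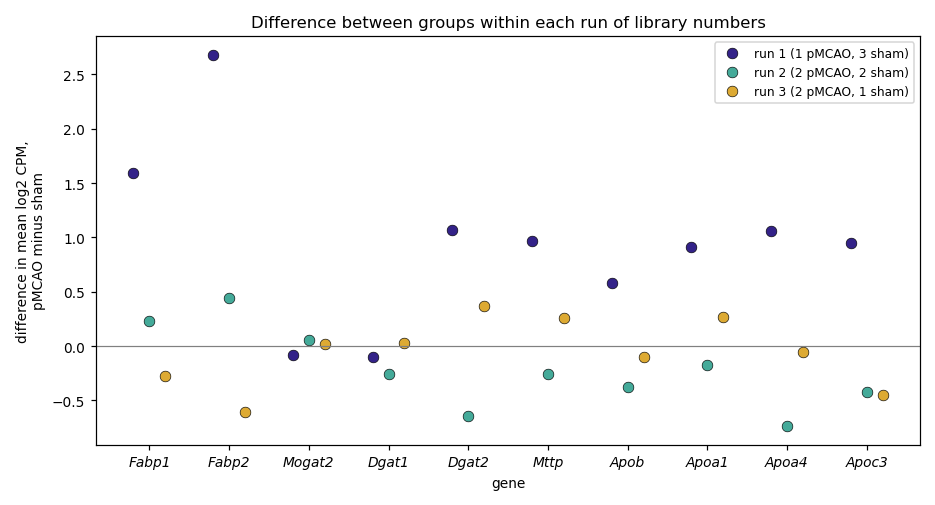
Difference in mean log2 CPM between pMCAO and Sham (y axis) for each gene within library runs 1, 2 and 3; run 4 held a Sham sample alone. The points of run 1, which compare pMCAO replicate 1 with 3 Sham samples, lie above those of runs 2 and 3 for Fabp1, Fabp2, Dgat2, Mttp, Apob, Apoa1, Apoa4 and Apoc3.

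The differences between groups varied between the library runs, and none of the 10 members had the same sign in all 3 runs that held both groups. Within run 1, with 1 pMCAO and 3 Sham samples, the difference in mean log2 CPM was 2.68 for Fabp2, 1.60 for Fabp1, 1.07 for Dgat2 and 1.06 for Apoa4. Within run 2, with 2 and 2 samples, it was 0.44 for Fabp2, 0.23 for Fabp1, -0.65 for Dgat2 and -0.74 for Apoa4. Within run 3, with 2 pMCAO and 1 Sham samples, it was -0.61 for Fabp2, -0.28 for Fabp1, 0.37 for Dgat2 and -0.06 for Apoa4. Mogat2 and Dgat1 varied least between the runs, with differences of -0.08 to 0.05 and of -0.26 to 0.03. Run 1 has a single pMCAO sample, so that sample and its group cannot be told apart there. That library also had the highest enterocyte marker sum of all libraries in TMM-scaled CPM, 18314 CPM, a rank that depends on the scaling. Its goblet marker sum was 5202 CPM, within the 3217 to 5781 CPM of the early libraries.

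Within the Sham group, 5 of the 10 members did not overlap in TMM-scaled CPM between the early and the later libraries, beside 27.4% of all genes. Of these, 2 were higher and 3 lower in the later ones. Fabp1 was 236 to 258 CPM in the 3 early Sham libraries and 385 to 1497 CPM in the 4 later ones, a ratio of later to early means of 3.83. Fabp2 was 1742 to 2292 CPM and 2725 to 6722 CPM, a ratio of 1.98. Apob went the other way, with 18400 to 20673 CPM early and 6352 to 17419 CPM later, a ratio of 0.577. Dgat1 (525 to 632 CPM early, 288 to 467 CPM later) and Apoc3 (644 to 739 CPM early, 405 to 558 CPM later) were also lower in the later libraries without overlap. Apoa1 and Apoa4 had ratios of 0.617 and 0.694 with overlapping ranges. Mogat2, Dgat2 and Mttp had ratios of 1.01, 0.962 and 1.12, also with overlapping ranges. No test was made of this split, which follows the library numbers and not a treatment. The TMM factors were 0.559 to 0.792 in the early Sham libraries and 0.993 to 1.46 in the later ones. Apob took 463158 of 26724213 counts in Sham replicate 6, a larger share than 99696 of 7538258 in Sham replicate 2, an early library. Dgat1 (14397 against 2531 counts) and Apoc3 (21690 against 3270 counts) had the same order. The gaps of these 3 genes thus depend on the TMM scaling.

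Among the 8 later libraries, the members fell into pairs and groups by how their log2 CPM varied together, given as a description over libraries that share the same scaling and 2 treatment groups. Fabp1 followed Mogat2, with Pearson's r of 0.968 and Spearman's rho of 0.929 (r = 0.930 without the 2 libraries farthest from the median of Fabp1). Dgat1 followed Dgat2 (r = 0.950, rho = 0.833) and Apob (r = 0.944, rho = 0.857), and these stayed at 0.866 and 0.827 without the 2 farthest libraries. Apob and Apoa1 had r = 0.840 and rho = 0.762, which fell to 0.538 without the 2 farthest libraries. The fatty acid binding genes went apart, with r = 0.328 between Fabp1 and Fabp2, and Fabp2 ran against Apoa4 (r = -0.650, rho = -0.595).

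Outside the lists, the genes most like the mean of the centred and scaled members over the 12 libraries were Fam109a (r = 0.940), Ift20 (r = 0.928), Suco (r = 0.921), Uso1 (r = 0.910) and Gyk (r = 0.904). In the 8 later libraries alone, r was 0.969, 0.892, 0.775, 0.801 and 0.866 for the same genes. These 8 are among the 12 libraries by which the genes were picked, so the values are not an independent check. The mean of the members was 1.51 in pMCAO replicate 1, -1.02 in Sham replicate 7 and -0.879 in pMCAO replicate 2. In every other library it lay between -0.165 and 0.179.

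**Figure D5:**
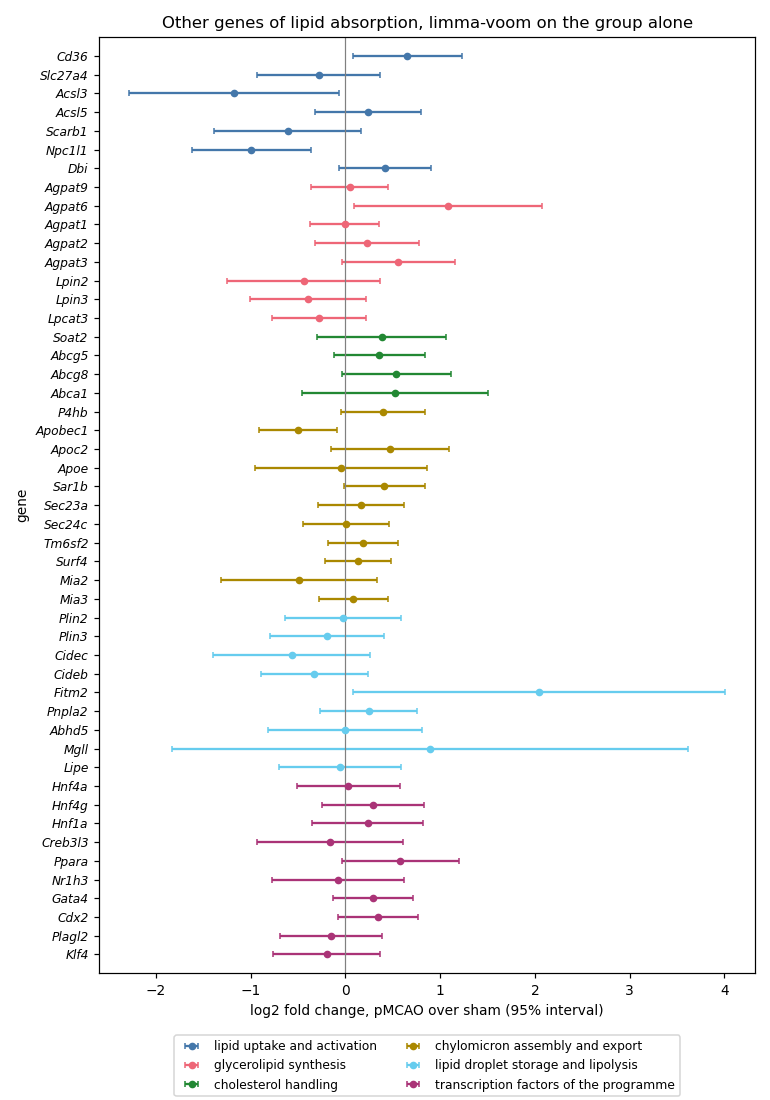
Log2 fold change of pMCAO over Sham (x axis) with its 95% interval for the 49 tested genes of the surrounding pathway, from limma-voom on the group alone, coloured by list. The interval lies above 0 for Cd36, Agpat6 and Fitm2 and below 0 for Acsl3, Npc1l1 and Apobec1, before adjustment over 14462 genes.

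The surrounding pathway was read from 6 lists with 51 genes in the table, of which 49 passed the filter on low counts. Neither limma-voom fit called any of them. On the group alone 6 of 49 had an unadjusted p under 0.05, with 3 estimates above 0 and 3 below, beside 8.43% of all genes, and with the runs 7 of 49, with 4 above and 3 below, beside 12.7%. The median log2 fold change of the 49 genes was 0.08 on the group alone, beside 0.06 over all genes. Among the later libraries, the groups did not overlap in TMM-scaled log2 CPM for 2 of the 49, Npc1l1 and Apobec1, beside 3.51% of all genes. For Npc1l1 this depends on the scaling.

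Npc1l1, the transporter that takes up cholesterol from the gut lumen, had the smallest p of the pathway lists. It lay between 1241 and 3454 CPM in Sham, with a median of 1903 CPM, and was 1708, 882, 1162, 780 and 1027 CPM in the pMCAO replicates 1 to 5. In TMM-scaled CPM, 4 of the pMCAO samples lay below every Sham sample, and replicate 1 lay below the 3 early Sham samples, which held 2830 to 3454 CPM. This separation depends on the scaling. The TMM factor was 1.36 in pMCAO replicate 3, but 1.03 and 1.22 in Sham replicates 4 and 7. With counts scaled to library totals alone, the log2 fold change of Npc1l1 was -0.65, beside a median of 0.35 over all genes. The log2 fold change of Npc1l1 was -0.99 ± 0.30 (SE; limma-voom, adjusted p = 0.350) on the group alone and -0.83 ± 0.14 with the runs (limma-voom, adjusted p = 0.0152). The latter passed the threshold on the adjusted p but not that on the fold change. The difference in mean log2 CPM was -0.87, -0.67 and -1.01 within runs 1, 2 and 3. In the 26 alternatives the estimate ran from -1.16 to -0.65 and the adjusted p from 2.873e-04 to 0.713.

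The other genes of uptake and activation were spread on both sides of 0. Cd36, a membrane receptor for long-chain fatty acids, had a mean of 26.3 CPM (SD 6.60, n = 7) in Sham and of 45.1 CPM (SD 18.7, n = 5) in pMCAO, a log2 fold change of 0.65 ± 0.27 (SE; limma-voom, adjusted p = 0.543). Acsl3, which activates long-chain fatty acids to their coenzyme A esters, was 276 ± 137 CPM (SD) in Sham and 163 ± 170 CPM in pMCAO, a log2 fold change of -1.17 ± 0.52 (SE; limma-voom, adjusted p = 0.575). Exons of Acsl3 are shared with Utp14b on the same strand, so its counts are uncertain. Of the 7 genes of this list, 3 had an unadjusted p under 0.05.

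Of the 8 tested genes of glycerolipid synthesis, 1 had an unadjusted p under 0.05. Agpat6, now named Gpat4, encodes a glycerol-3-phosphate acyltransferase and was low, at 3.82 ± 3.10 CPM in Sham and 6.71 ± 2.31 CPM in pMCAO, with a log2 fold change of 1.08 ± 0.47 (SE; limma-voom, adjusted p = 0.567). The 4 genes of cholesterol handling all had estimates above 0 on the group alone, beside 55.2% of all genes, with a median log2 fold change of 0.45. None of them had an unadjusted p under 0.05 in that fit. Abcg8, which with Abcg5 returns sterols to the gut lumen, was 129 ± 54.9 CPM in Sham and 175 ± 41.4 CPM in pMCAO. Its log2 fold change was 0.54 ± 0.27 (SE) on the group alone and 0.63 ± 0.22 with the runs (limma-voom, adjusted p = 0.220). Exons of Abcg5 and Abcg8 overlap on opposite strands.

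Among 11 tested genes of chylomicron assembly and export, 1 had an unadjusted p under 0.05. Apobec1, the cytidine deaminase that edits the Apob transcript, was 112 ± 18.6 CPM in Sham and 80.5 ± 23.8 CPM in pMCAO, a log2 fold change of -0.50 ± 0.19 (SE; limma-voom, adjusted p = 0.512) and of -0.41 ± 0.15 with the runs (adjusted p = 0.245). Its pMCAO values ran from 59.7 to 122 CPM and its Sham values from 88.4 to 138 CPM. The other 10 genes of the list had estimates between -0.49 and 0.47.

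Of 9 genes of lipid droplet storage and lipolysis, 1 had an unadjusted p under 0.05 on the group alone. Fitm2, which takes part in budding of lipid droplets, was 1.07 ± 1.12 CPM in Sham, with at least 1 library at 0, and 3.13 ± 2.05 CPM in pMCAO. Its fitted change thus rests on low counts. Its exons overlap a gene on the opposite strand. Of 10 transcription factors of the programme, none passed an unadjusted p of 0.05 on the group alone and 1 did with the runs. Ppara, a nuclear receptor for fatty acids, was 7.50 ± 3.07 CPM in Sham and 10.9 ± 2.53 CPM in pMCAO, with a log2 fold change of 0.61 ± 0.28 (SE; limma-voom, adjusted p = 0.370) with the runs.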

How the data were processed

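RNA was sequenced from sorted EpCAM+ cells of the small intestine in 12 samples, which were grouped by the treatment in the labels. According to the study's methods and the submitters' processing notes, the authors removed ribosomal RNA by cleavage, built libraries with the Trio kit, aligned the reads to GRCm38 with STAR and assigned them to genes with featureCounts; whether counting used strand was not given in the sources used here. The deposited counts are whole-number read counts per gene, not normalised, and were used for every test. The deposited CPM columns, the deposited log2 fold change and average expression columns, and the deposited p-value columns of the authors' own comparison were not used. All 12 samples matched a count column by name, and 0 columns of no sample were left.

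Genes were kept with filterByExpr (minimum count 10), which left 14462 of 15855. Library sizes were adjusted by TMM and groups compared by the two-sided test of limma-voom on the group alone (limma 3.58.1, edgeR 4.0.16, R 4.3.3), with Benjamini-Hochberg adjustment over all tested genes; the thresholds were an adjusted p of 0.05 and an absolute log2 fold change of 1, as in the study's methods. CPM values are TMM-scaled, and log2 CPM carries a prior count of 2. Levels per kilobase used the exon union of GENCODE M21. Fold changes are pMCAO over Sham. The study corrected for the day of tissue collection, which the labels do not give. The 4 runs of library numbers used as a covariate came from an earlier analysis of these data, which picked them by the authors' deposited fold changes, and whether each run is a collection day is not known; sham replicate 7 is alone in its run and carries no information on the group there. The members, the pathway and marker lists and the library runs were chosen with earlier results of these data known. The text names all members, each pathway gene with an unadjusted p under 0.05 with or without the runs, and the 5 genes outside the lists whose log2 CPM correlated best with the mean of the centred and scaled members. Mogat1 and Vamp7 of the pathway lists were not analysed here, and Gpam and Apoa5 did not pass the filter. Each sample is labelled as a biological replicate. A further pMCAO sample of the study's comparison was not analysed here. The depth of 7418730 to 31925579 counts sets a floor of 3 counts at 0.0940 to 0.404 CPM, far below every member. Alternatives included DESeq2 (1.42.0), edgeR's quasi-likelihood test, other scalings and filters, sample quality weights, covariates for the library runs or for early libraries, the replicate number as a block, and leaving out single libraries. The fits were tested before use on simulated counts with a group effect but no difference between library runs. That test therefore does not cover the split between early and later libraries.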

Additional observations from a re-analysis of the deposited data

Results flagged for a closer look

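Among the 20 combinations of the 10 genes and 2 groups, 2 held a sample far from the others of its group by Dixon's test at 95%, where chance gives about 1. Both were pMCAO replicate 1. Apoa1 was at 13.76 log2 CPM there, against 12.19 ± 0.199 (SD, n = 4) in pMCAO replicates 2 to 5. Apoc3 was at 10.37 log2 CPM there, against 8.57 ± 0.291 (SD, n = 4). The gap to the nearest sample took 0.745 of the group's range for Apoa1 and 0.714 for Apoc3, with a critical value of 0.71. This library is the only pMCAO sample among libraries 58 to 61. Its TMM factor was 0.756, against 1.09 to 1.52 in the other pMCAO samples. It had the highest enterocyte marker sum in TMM-scaled CPM, 18314 CPM, a rank that depends on the scaling.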

How the results depend on the processing

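The call of 0 members held in the 26 alternatives except for the replicate block fits. Fabp1, Fabp2 and Mttp kept their direction in all 26 alternatives, with log2 fold changes of 0.32 to 1.65, 0.14 to 2.54 and 0.25 to 0.94. The count of genes called moved from 0 to 47 with the library runs, 16 with a term for early libraries, 68 with DESeq2, 3 with total counts only and 18 with sample quality weights, and to 21 and 115 with the runs in edgeR and DESeq2, alternatives chosen after seeing the data; without 1 replicate it was 0 to 17. By limma-voom 1219 genes had an unadjusted p under 0.05, and edgeR called 0. The reversed estimates were near 0 in most cases. Apob turned to 0.0032 with the runs, 0.16 with the early term, 0.21 with total counts and 0.026 without libraries 58 to 61. Apoa4 turned to 0.013 with the runs, 0.073 with the early term, 0.037 in edgeR, 0.012 in DESeq2, 0.15 with total counts, and 0.073 and 0.057 with the runs in edgeR and DESeq2. Apoc3 turned to 0.051 with total counts, and 0.038 and 0.024 with the runs in edgeR and DESeq2. Mogat2 turned to -0.042 and -0.055 in those same fits. Dgat1 turned to 0.10 with total counts, and Apoa1 to -0.12 with quality weights. Without 1 replicate, Apob ran from -0.40 to 0.069, Apoa4 from -0.58 to 0.045, Apoc3 from -0.59 (without pMCAO replicate 1) to -0.032, Apoa1 from -0.23 to 0.23 and Dgat2 from -0.019 to 0.47. The replicate numbers do not pair the samples: the correlation of deviations was 0.398, -0.239, -0.163, 0.163 and 0.082 for numbers 1 to 5, and 3 of 10 samples correlated best with their own number. The fit with the replicate block called 243 genes, among them 2 members (Fabp1 and Fabp2) and 1 pathway gene (Npc1l1), and turned Dgat2 to -0.0010 and Apoa1 to -0.11. The replicate block with the runs called 28 genes, with 1 member (Fabp2) and 1 pathway gene (Apoc2), gave a median of 0.99 for the members, and turned Mogat2 to -0.021, Apob to 0.66, Apoa4 to 1.315, Apoc3 to 1.04 and Acsl3 to 0.34. The cause of these moves was not tested.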

Other observations

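Ratios between members within a library are given here as values in CPM without a correction for length. The ratio of Apoa1 to Apoc3, neighbours on chromosome 9, ran from 6.72 in Sham replicate 7 to 13.8 in pMCAO replicate 2. The ratio of Apoa4 to Apoa1 ran from 0.771 in pMCAO replicate 2 to 1.64 in Sham replicate 4. The ratio of Dgat1 to Dgat2 ran from 1.96 in pMCAO replicate 1 to 4.82 in Sham replicate 3. The ratio of Fabp2 to Apob ran from 0.0906 in Sham replicate 3 to 0.659 in Sham replicate 7, and was 0.459, 0.640, 0.243, 0.335 and 0.474 in the pMCAO replicates 1 to 5. In the early Sham libraries it was 0.125, 0.109 and 0.0906. Of the 8 ratios computed, that of Fabp1 to Apob had the widest span, from 0.0116 in Sham replicate 2 to 0.133 in Sham replicate 4, an 11.4-fold range.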
